A study of Mus musculus with 37 samples.

Results

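Nkx2-3 and Madcam1 are 2 of the 56351 genes in a table of ribosome-bound RNA from mouse lymph nodes and spleen. They were taken by gene symbol and followed through all 37 libraries. The pair was picked because earlier results from these files had named both genes as higher in nodes that drain the gut, so their levels across nodes are given as a description. In comparisons with spleen the node libraries are the ones that chose the genes, so the differences of both genes there are also given with their errors and with no p, and a test is given only between the 2 gut nodes. The pair's working name calls Madcam1 a target of Nkx2-3, but neither binding nor regulation was measured.

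The series title asks what sets gut-draining lymph nodes apart. Each of 12 sites gave 3 libraries: spleen, 4 intestinal nodes (ileal, ceco-colonic, jejunal, duodenal), the liver and celiac nodes and 5 other nodes (mediastinal, inguinal, iliac, deep cervical, super cervical). A further library is an isotype control pull-down from jejunal node. Spleen is named in the titles of its libraries, while their tissue label reads lymph node as in the rest. Every library carries the same genotype, labelled CD169 Cre KI/KI and Rpl22HA homozygous: a Cre recombinase driven from the CD169 (Siglec1) locus switches on a haemagglutinin-tagged copy of the ribosomal protein Rpl22, and ribosomes with their mRNA are then pulled down through the tag. No library without Cre is analysed here, and ages and sexes are not in the labels. The labelled cell type is cd169 macrophages. Siglec1 itself, the gene of CD169, stayed between 0 and 3.33 CPM (counts per 1000000 counts of a library), with more than 3 counts in 7 of the 36 pull-downs. The labels do not say whether the knock-in at this locus, KI/KI in every library, leaves Siglec1 expressed. Marco, a scavenger receptor of sinus macrophages, ran from 7.72 to 7820 CPM in the pull-downs and stood at 17.0 CPM in the isotype library. The labels do not say that replicates came from separate animals, so p-values measure the spread between these libraries, which may be technical.

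Nkx2-3 encodes a homeobox transcription factor of the NK2 family that is made in the mesenchyme of the developing gut and in the stroma and vessels of the spleen. Mice without it have a misshapen spleen and disturbed gut lymphoid tissue, with altered MAdCAM-1. Madcam1 encodes MAdCAM-1, the mucosal addressin, an adhesion molecule of the immunoglobulin superfamily on venules of Peyer's patches, mesenteric nodes and gut lamina propria and on cells lining the splenic marginal sinus. Lymphocytes that carry the integrin made of Itga4 and Itgb7 bind it and enter the tissue, and lymphotoxin and TNF signals acting through NF-kB are known to induce it.

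In the mouse build GRCm38 (GENCODE M21), Nkx2-3 lies on the plus strand at chr19:43612325-43615892 with 2 exons. Madcam1 lies on the plus strand at chr10:79664559-79668537, with 5 exons in its longer annotated transcript and 4 in the other. No other annotated gene overlaps either of them on either strand, so unstranded counting would not mix them with a neighbour. The promoters are shown because the factor and the addressin are often drawn as factor and target, and none of the deposited values measures binding there. They are windows of 300 bases around the start of each gene in RefSeq (GRCm38.p6), most of it upstream, at chr10:79664309-79664608 for Madcam1 and chr19:43612075-43612374 for Nkx2-3, and capitals mark matches to the NF-kB motif.
Madcam1: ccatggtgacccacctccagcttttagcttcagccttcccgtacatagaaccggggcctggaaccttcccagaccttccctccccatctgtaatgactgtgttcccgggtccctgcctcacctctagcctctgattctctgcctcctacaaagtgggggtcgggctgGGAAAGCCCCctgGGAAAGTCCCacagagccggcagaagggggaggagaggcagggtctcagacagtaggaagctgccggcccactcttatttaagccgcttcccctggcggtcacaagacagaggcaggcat
Nkx2-3: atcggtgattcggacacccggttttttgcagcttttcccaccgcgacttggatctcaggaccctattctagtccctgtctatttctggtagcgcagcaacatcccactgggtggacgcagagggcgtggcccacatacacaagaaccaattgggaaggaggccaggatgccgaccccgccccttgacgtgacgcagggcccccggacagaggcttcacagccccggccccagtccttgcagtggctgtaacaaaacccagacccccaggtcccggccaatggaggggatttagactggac

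Both strands were searched for the NF-kB motif and for the NK2 motif TNAAGTG. The Madcam1 window held 2 NF-kB matches and no NK2 match. Read on the minus strand, the matches are GGGGCTTTCC at positions -83 to -74 and GGGACTTTCC at positions -70 to -61 from the gene start, and they do not overlap each other. The Nkx2-3 window held neither motif. Of 32851 RefSeq mouse promoters of the same length, 8.46% held at least 1 NF-kB match, 3.39% held 2 or more and 11.5% held an NK2 match. Matches were counted on each strand, so a site that reads as the NF-kB motif on both strands counts as 2. The 3.39% can therefore include promoters with 1 such site, unlike the 2 separate matches of Madcam1. These are matches of letters in a window of 300 bases and nothing about binding follows from them.

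Library depth set what could be seen. The 22 deeper libraries held 1165387 to 69139450 counts: the 3 of ileal, ceco-colonic, inguinal, super cervical, deep cervical and mediastinal node and of spleen, and jejunal replicate 2. The other 14 pull-downs held 221911 to 917912 counts, and there 3 counts, taken here as the detection floor, correspond to 3.27 to 13.5 CPM. Floors cover counting error only. In these tissue pull-downs, fewer cells of a type and less RNA per cell cannot be told apart.

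Nkx2-3 was found in every library of spleen and of the ileal and ceco-colonic nodes. Spleen held 59.8, 364 and 23.7 counts, which is 24.5, 37.8 and 20.4 CPM of plain library totals. Ileal node held 595, 954 and 495 counts, or 31.0, 30.0 and 26.3 CPM. Ceco-colonic node held 106, 68.0 and 63.9 counts, or 25.3, 28.6 and 22.8 CPM. The 6 gut libraries lay close together, between 22.8 and 31.0 CPM, and within the wider range of the spleen libraries.

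Outside gut nodes and spleen, Nkx2-3 was near 0 in deep libraries, with 1 exception. Mediastinal node, the deepest site, had 3.02, 0 and 9.16 counts, so the highest of its libraries reached 0.132 CPM. Deep cervical node had 0, 0 and 4 counts, and inguinal node 0, 0 and 0.981. Super cervical replicate 3 stood apart with 352 counts (38.8 CPM), while replicates 1 and 2 of that node held 0 counts, where the floor of 3 counts is 2.34 and 0.852 CPM. In all, 7 of the 12 libraries of these 4 nodes had no Nkx2-3 count, and 4 had more than 3.

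The super cervical library that held Nkx2-3 also held the most salivary gland RNA. Summed over 11 of 12 salivary gland genes, among them Smr3a and Aqp5, this was 2.54 to 4.35 CPM in the gut libraries. It reached 19734 CPM in super cervical replicate 3, against 419 and 3212 CPM in replicates 1 and 2, with 1, 4 and 4 of the 11 genes at 0 in that order. Deep cervical replicate 2 had 1167 CPM of these genes and 0 counts of Nkx2-3. The part of salivary tissue in this library's Nkx2-3 was not tested.

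The shallow sites were mostly without Nkx2-3, and the jejunal node was the exception. Jejunal node held 7.63, 27.7 and 0 counts, or 15.4, 14.2 and 0 CPM, and the third library's floor of 3 counts is 11.7 CPM. The isotype pull-down from the same kind of node had 0 counts in 5002926, which allows up to 0.6 CPM. Duodenal node, by contrast, had 0, 0 and 0.999 counts, and over its 3 libraries together 3 counts would be 3.14 CPM. Liver and celiac nodes had 0 counts in all 6 libraries, with pooled floors of 2.64 and 2.02 CPM, and iliac node had 0.946 counts in all, with a pooled floor of 1.61 CPM. Ribosomal features took 39.0% to 85.6% of the counts in the 14 shallow libraries, so these floors are higher still when set against the other RNA alone.

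Madcam1 was scarce in spleen and was found in every deep node library, in gut and elsewhere. Spleen held 0.835, 35.3 and 1.36 counts, so that only replicate 2, the deepest spleen library, lay above 3 counts, at 3.67 CPM of plain totals. The floors of spleen replicates 1 and 3 are 1.23 and 2.57 CPM. Against this, ileal node held 931, 1595 and 666 counts, or 48.5, 50.1 and 35.4 CPM. Ceco-colonic node held 111, 106 and 150 counts, or 26.5, 44.8 and 53.5 CPM. Mediastinal node, with next to no Nkx2-3, held 1827, 1245 and 1795 counts, or 33.6, 30.2 and 26.0 CPM, and so overlapped the gut libraries on this scale.

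Super cervical node held 18.9, 68.8 and 286 counts of Madcam1, or 14.8, 19.5 and 31.6 CPM. Inguinal node held 11.9, 47.4 and 297 counts, or 3.86, 14.4 and 17.7 CPM. Deep cervical node was the lowest of the deep nodes, with 12.9, 19.0 and 120 counts, or 4.52, 3.91 and 7.60 CPM. All 12 libraries of the 4 non-digestive nodes were above 3 counts.

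In the remaining sites Madcam1 was hardly seen. Jejunal replicate 2 held 15.1 counts (7.73 CPM), jejunal replicates 1 and 3 held 1.68 and 0, and duodenal, liver and celiac libraries held 0. Iliac node had 0.847 counts in all and the isotype library 0.857.

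**Figure D1:**
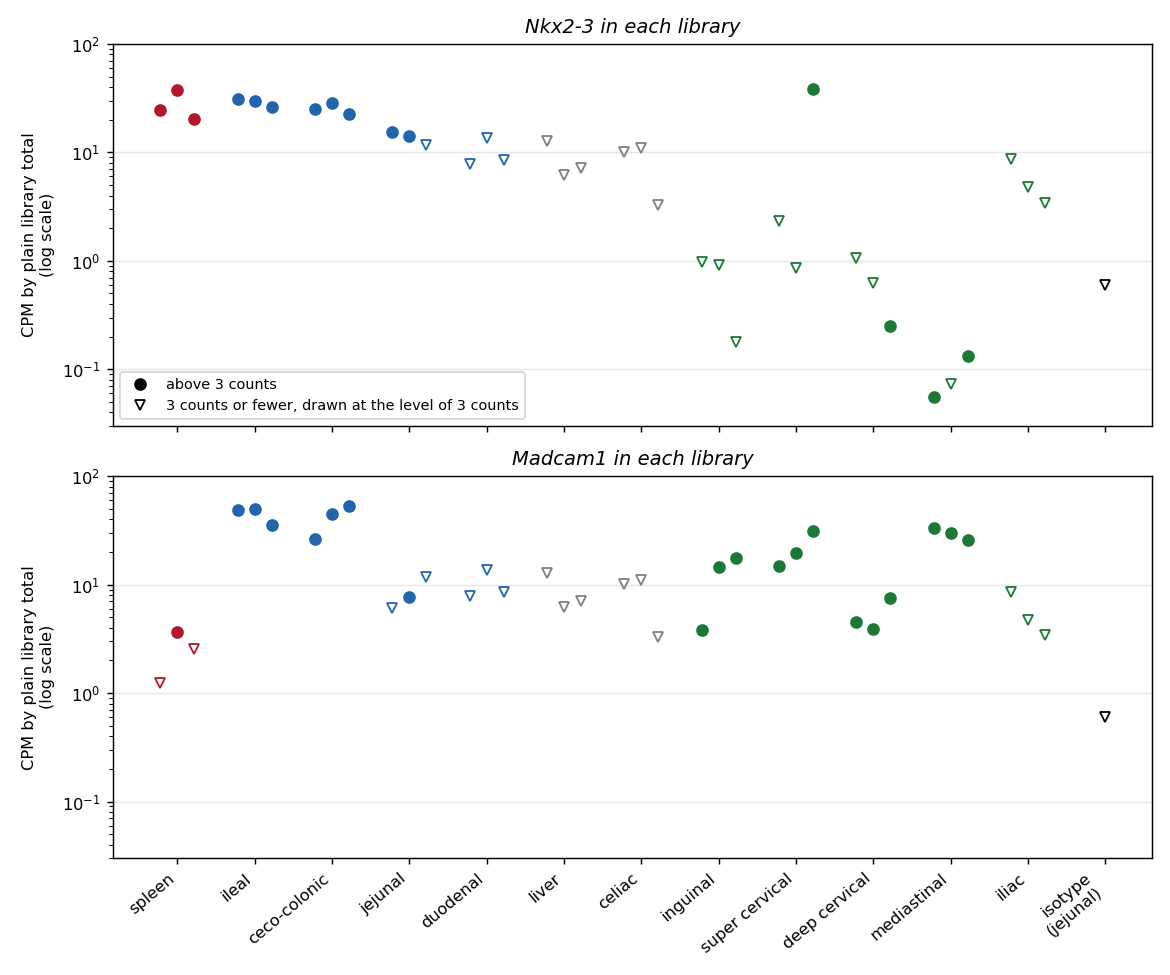
Each point is 1 of the 37 libraries, with CPM by plain library total on a log axis, Nkx2-3 above and Madcam1 below; open triangles mark libraries with 3 counts or fewer, drawn at the level of 3 counts. Nkx2-3 stands at 20.4 to 37.8 CPM in spleen and 22.8 to 31.0 CPM in ileal and ceco-colonic node, with super cervical replicate 3 at 38.8 CPM apart from the other non-digestive libraries, whereas Madcam1 is above 3 counts in every deep node library and in 1 of 3 spleen libraries.

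For comparisons, CPM was taken on totals adjusted by TMM, which corrects for a few very abundant RNAs. On this scale Nkx2-3 averaged 42.6 ± 15.9 CPM in spleen, 23.8 ± 1.57 CPM in ileal node, 29.3 ± 2.72 CPM in ceco-colonic node and 10.5 ± 18.2 CPM in super cervical node (SD, n = 3 each). Deep cervical node averaged 0.0595, mediastinal node 0.0437 and inguinal node 0.0170 CPM. Spleen overlapped ceco-colonic node, ceco-colonic node did not overlap ileal node, and ileal node overlapped super cervical node only because of the library at 31.5 CPM. The 4 lowest sites overlapped one another. With plain totals the order of the top 3 changed to ileal node at 29.1, spleen at 27.6 and ceco-colonic node at 25.6 CPM, so their order is not settled by these libraries.

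On the same scale Madcam1 averaged 2.47 ± 2.71 CPM in spleen, the lowest site, and 36.2 ± 2.02 CPM in ileal node and 48.6 ± 19.9 CPM in the ceco-colonic node, the highest. Super cervical node averaged 21.9 ± 3.23 CPM, mediastinal node 21.3 ± 2.47 CPM, inguinal node 12.1 ± 6.99 CPM and deep cervical node 4.18 ± 1.20 CPM (SD, n = 3 each). Ileal and ceco-colonic node overlapped, as did super cervical and mediastinal node, inguinal and deep cervical node, and deep cervical node and spleen. Ileal node did not overlap super cervical node, and mediastinal node did not overlap inguinal node.

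Against the 4 non-digestive nodes together (inguinal, super cervical, deep cervical and mediastinal, so called because their titles name no digestive organ), both genes were higher in the 2 gut nodes. Madcam1 averaged 42.4 ± 14.4 CPM in the 6 gut libraries and 14.9 ± 8.38 CPM in the 12 non-digestive libraries (SD). On this scale these groups did not overlap, since the lowest gut library stood at 28.0 and the highest other library at 25.6 CPM. On plain totals they overlapped, with ceco-colonic replicate 1 at 26.5 CPM and mediastinal replicate 1 at 33.6 CPM. Jejunal replicate 2, a gut node library outside this comparison, stood at 12.6 CPM on TMM totals, within the non-digestive range. The fitted log2 difference of Madcam1 was 1.74 ± 0.27 (SE), in a comparison where 3.77% of all 19702 tested genes passed in either direction. Nkx2-3 averaged 26.5 ± 3.59 CPM in gut libraries and 2.65 ± 9.08 CPM in the others, with a fitted log2 difference of 6.73 ± 0.69. That fitted value depends on how libraries near 0 are handled and is no bound: without super cervical replicate 3 it was 9.45. No p is given for either gene, since earlier results on nodes of these groups chose them.

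Between the 2 gut nodes, which drain small and large intestine, neither gene showed a fitted difference beyond its error in the shared model. Nkx2-3 averaged 23.8 ± 1.57 CPM in ileal node and 29.3 ± 2.72 CPM in ceco-colonic node, a log2 difference of -0.30 ± 0.87 (adjusted p = 0.918, edgeR quasi-likelihood test, Benjamini-Hochberg over 19702 genes). Madcam1 averaged 36.2 ± 2.02 CPM in ileal node and 48.6 ± 19.9 CPM in ceco-colonic node, a log2 difference of -0.42 ± 0.45 (adjusted p = 0.735). Over all genes 0.264% passed in this comparison. The errors and p rest on 1 estimate of spread per gene over all 22 deeper libraries, not on these 6 alone. For Nkx2-3 that estimate takes in super cervical node, where 1 library held 352 counts and 2 held 0. The lowest ceco-colonic library stood at 26.7 and the highest ileal library at 25.2 CPM of Nkx2-3. On plain totals the ileal mean was the higher for both genes.

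Spleen had much less Madcam1 than the gut nodes, while the libraries overlapped for Nkx2-3. Madcam1 averaged 2.47 ± 2.71 CPM in the 3 spleen libraries and 42.4 ± 14.4 CPM in the 6 gut libraries, and the groups did not overlap. Its fitted log2 difference was -3.65 ± 0.53 (SE). This lies at percentile 5.26 of all genes tested, in a comparison where 46.7% of genes passed, 19.6% as higher in spleen and 27.1% as lower. Without spleen replicate 2, the only spleen library above the floor, the difference was -5.55. Nkx2-3 averaged 42.6 ± 15.9 CPM in spleen and 26.5 ± 3.59 CPM in gut libraries, a log2 difference of 0.72 ± 0.74. Whether the 2 genes differ from each other in this comparison was not tested.

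Against the non-digestive nodes, the fitted differences of the 2 genes in spleen had opposite signs, though the libraries overlapped for both. Nkx2-3 averaged 42.6 ± 15.9 CPM in spleen and 2.65 ± 9.08 CPM in the 12 non-digestive libraries, with a fitted log2 difference of 7.45 ± 0.76 that became 10.2 without super cervical replicate 3. Madcam1 averaged 2.47 ± 2.71 CPM in spleen and 14.9 ± 8.38 CPM in those nodes, a log2 difference of -1.90 ± 0.48. In this comparison 58.2% of all genes passed, 25.6% as higher in spleen and 32.7% as lower. The Madcam1 difference was -3.81 without spleen replicate 2 and -1.35 without spleen replicate 1.

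**Figure D2:**
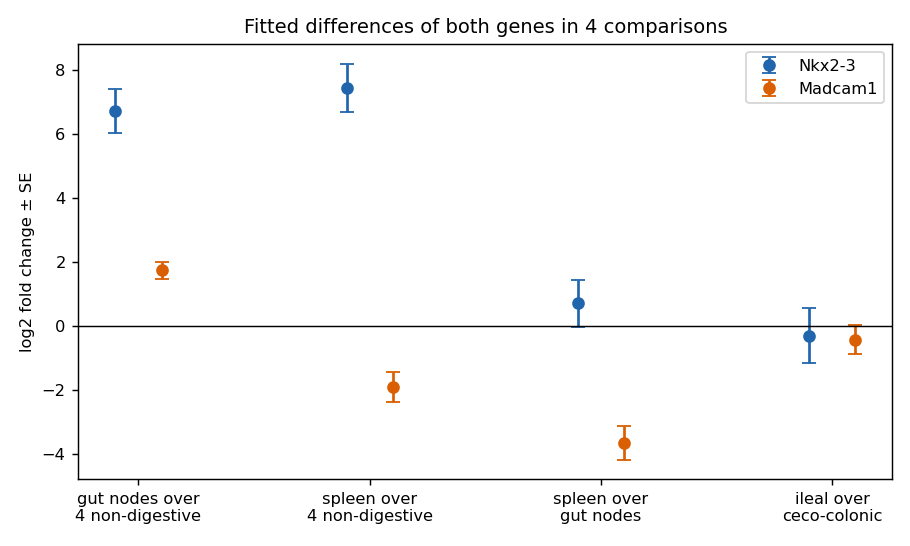
Fitted log2 fold changes of Nkx2-3 and Madcam1 with their standard errors in 4 comparisons of the 22 deeper libraries. Nkx2-3 lies at 6.73 for gut over non-digestive nodes and 7.45 for spleen over the same nodes, whereas Madcam1 lies at 1.74 and -1.90; only the values of ileal over ceco-colonic node were tested, and the comparisons share libraries.

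In the count of Madcam1 per count of Nkx2-3 within a library, spleen did not overlap the ileal and ceco-colonic nodes. This ratio was 0.0140, 0.0970 and 0.0571 in spleen, 1.57, 1.67 and 1.35 in ileal node and 1.05, 1.57 and 2.34 in ceco-colonic node. All 3 spleen libraries were below all 6 gut libraries in this ratio, though spleen replicates 1 and 3 rest on 0.835 and 1.36 counts of Madcam1. Jejunal replicate 2, with a ratio of 0.545, and super cervical replicate 3, with 0.813, lay between them. The ratio was 604 and 196 in mediastinal replicates 1 and 3 and 30.0 in deep cervical replicate 3, where it rests on few counts of Nkx2-3. The other non-digestive libraries held at most 3 counts of Nkx2-3 and give no usable ratio. Because gene lengths enter the counts, the ratio compares libraries and not the amounts of both mRNAs.

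**Figure D3:**
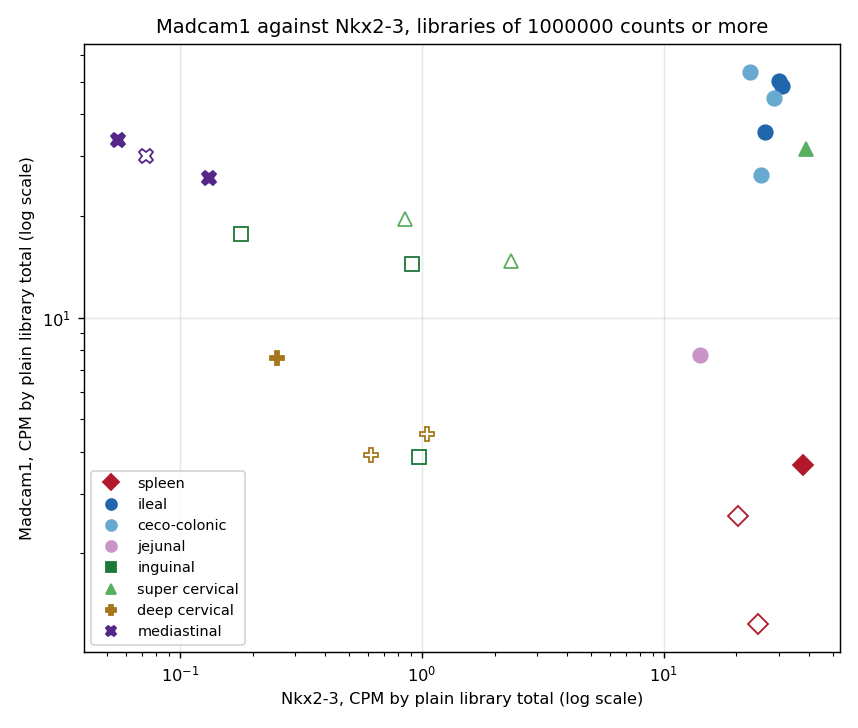
Madcam1 against Nkx2-3, each in CPM by plain library total on log axes, for the 22 deeper libraries; open symbols have 3 counts or fewer of at least 1 of the genes, which is then drawn at the level of 3 counts. Spleen lies at lower right, ileal and ceco-colonic nodes at upper right beside super cervical replicate 3, and mediastinal node at upper left, with high Madcam1 and at most 0.132 CPM of Nkx2-3.

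Other genes of the high endothelial venules, the vessels that bear addressins and through which lymphocytes enter nodes, were not called between gut and non-digestive nodes. Of 21 tested members of a list of 22, none passed as higher or lower in gut nodes against the 4 non-digestive nodes with edgeR, where 1.45% of all genes passed as higher and 2.32% as lower. Of the 21 genes, 5 had an unadjusted p under 0.05, as did 3992 of all 19702 genes. With DESeq2 2 of the 21 passed as lower, and with limma voom 0. The list's median log2 difference was -0.12, with -0.03 over all genes. Glycam1, an addressin-like mucin of venules of peripheral nodes, averaged 124 ± 81.7 CPM in gut libraries, and by site it averaged 1159 ± 559 CPM in mediastinal, 178 in deep cervical, 163 in inguinal and 123 in super cervical node. Mediastinal node was the highest site for Glycam1 and overlapped the gut nodes for Madcam1 on plain totals.

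In spleen, many venule genes were low together with Madcam1. Against gut nodes, 10 of the 21 tested were lower in spleen and none was higher with edgeR. An unadjusted p under 0.05 was found for 11 of the 21 and for 10644 of all 19702 genes, so nothing is read from that count. Over all genes 27.1% passed as lower and 19.6% as higher. The list median was -1.55 beside -0.15 over all genes. Enpp2, the enzyme autotaxin, averaged 1.84 ± 1.70 CPM in spleen and 50.1 ± 7.75 CPM in gut nodes (log2 -4.37 ± 0.49, adjusted p = 3.22e-07). Spns2, a transporter of sphingosine 1-phosphate, averaged 0.532 ± 0.787 CPM in spleen and 10.8 ± 5.30 CPM in gut nodes (-4.66 ± 0.72, adjusted p = 1.31e-05). Chst2, a sulfotransferase of venule sugars, averaged 9.32 ± 0.652 CPM in spleen and 28.8 ± 10.8 CPM in gut nodes (-1.55 ± 0.33). Ackr1, a chemokine-binding receptor of venules, had 0 CPM in all 3 spleen libraries and averaged 2.47 ± 1.86 CPM in gut nodes. Vcam1, another ligand of integrins with the Itga4 chain, averaged 32.4 ± 24.3 CPM in spleen and 78.7 ± 30.2 CPM in gut nodes (-1.16 ± 0.45, adjusted p = 0.0346). Against the non-digestive nodes 12 of the 21 were lower in spleen, where 32.7% of all genes passed as lower. Of the 21 genes, 9, 1 and 9 were at 0 in spleen replicates 1, 2 and 3, and at most 3 in a gut library. The floors of these spleen libraries are 1.23, 0.312 and 2.57 CPM of plain totals, so the lowest spleen means rest on few counts.

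Of the integrin chains that bind MAdCAM-1, Itgb7 passed as lower in spleen and Itga4 did not. Itgb7, the chain that gives the gut homing integrin its name, averaged 17.9 ± 17.6 CPM in spleen and 171 ± 56.6 CPM in gut nodes (log2 -3.08 ± 0.48, adjusted p = 1.51e-05, edgeR). Itga4, its partner, averaged 19.5 ± 3.22 CPM in spleen and 16.0 ± 2.78 CPM in gut nodes and did not pass (0.29 ± 0.34, adjusted p = 0.497). By site, Itgb7 averaged 126 CPM in ileal, 217 in ceco-colonic, 203 in super cervical, 184 in mediastinal, 130 in inguinal and 45.8 in deep cervical node. High Itgb7 was therefore found in nodes with and without Nkx2-3, and deep cervical node was the lowest node for Itgb7 and for Madcam1.

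Over the whole list of 15 homing receptors, 1 passed as higher and 8 as lower in spleen against gut nodes, with a median of -2.38, where 19.6% of all genes passed as higher and 27.1% as lower. Cxcr4, a chemokine receptor, averaged 6.03 ± 1.52 CPM in spleen and 43.7 ± 11.2 CPM in gut nodes (-2.81 ± 0.42). Ccr7, the receptor that guides T cells and dendritic cells into nodes, averaged 0.900 ± 0.818 CPM in spleen and 11.6 ± 2.94 CPM in gut nodes (-3.32 ± 0.59). Of the 15 genes, 3, 1 and 4 were at 0 in spleen replicates 1, 2 and 3, and at most 1 in a gut library. Itgal, a chain of the integrin LFA-1, was the member that was higher, with 59.5 ± 50.5 CPM in spleen and 19.1 ± 3.90 CPM in gut nodes (1.64 ± 0.38). In gut against non-digestive nodes 0 of the 15 passed with edgeR, DESeq2 or limma voom. An unadjusted p under 0.05 was found there for 0 of the 15 and for 3992 of all 19702 genes.

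Genes of the lymphotoxin, TNF and NF-kB route, which is known to induce Madcam1, were lower in spleen for 11 of 19 tested members. Of these 19 (of 21 listed), 11 were lower and none was higher against gut nodes with edgeR (median -1.93), where 27.1% of all genes passed as lower. An unadjusted p under 0.05 was found for 13 of the 19 and for 10644 of all 19702 genes. The list's summed level overlapped, at 945 to 5249 CPM in spleen and 3701 to 8425 CPM in gut libraries. Of the 19 genes, 6, 1 and 6 were at 0 in spleen replicates 1, 2 and 3, and at most 2 in a gut library. With DESeq2 10 were lower and 1 higher, and when all 36 libraries were fitted 7 were lower. Nfkb2, the precursor of the p52 subunit, averaged 6.10 ± 3.03 CPM in spleen and 77.6 ± 17.8 CPM in gut nodes (-3.51 ± 0.51). Relb, its partner, averaged 7.37 ± 3.03 CPM in spleen and 54.9 ± 9.03 CPM in gut nodes (-2.79 ± 0.41). Rela, the main subunit of the other NF-kB arm, averaged 5.83 ± 3.88 CPM in spleen and 48.7 ± 3.38 CPM in gut nodes (-2.88 ± 0.42). Birc2, a member of TNF receptor complexes, averaged 24.3 ± 18.7 CPM in spleen and 217 ± 34.4 CPM in gut nodes (-3.07 ± 0.44). No signalling was measured, and the count of lower genes does not give the direction of activity of the route.

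Of the receptor and ligand that open this route, the receptor passed as lower in spleen. Ltbr, the lymphotoxin beta receptor, averaged 0.373 ± 0.646 CPM in spleen and 11.7 ± 4.70 CPM in gut nodes (-3.91 ± 0.60, adjusted p = 1.20e-05). Ltb, its membrane ligand on lymphocytes, averaged 775 ± 597 CPM in spleen and 1464 ± 596 CPM in gut nodes and did not pass (-0.82 ± 0.42, adjusted p = 0.112). The spleen mean of Ltbr lies under the floors of spleen replicates 1 and 3, which are 1.23 and 2.57 CPM of plain totals. In gut against non-digestive nodes 0 of the 19 were higher with edgeR, DESeq2 or limma voom. An unadjusted p under 0.05 was found there for 4 of the 19 and for 3992 of all 19702 genes. With edgeR 1 was lower, Tnfsf13b, the B cell survival factor BAFF. It averaged 1.62 ± 0.567 CPM in gut and 7.13 ± 4.91 CPM in non-digestive libraries (-1.89 ± 0.33, adjusted p = 0.00074). Spleen against non-digestive nodes had 1 higher and 13 lower, beside 25.6% and 32.7% of all genes. In gut against non-digestive nodes these shares of all genes were 1.45% and 2.32%. The part of the lymphotoxin, TNF and NF-kB genes in the Madcam1 difference between spleen and gut nodes was not tested.

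**Figure D4:**
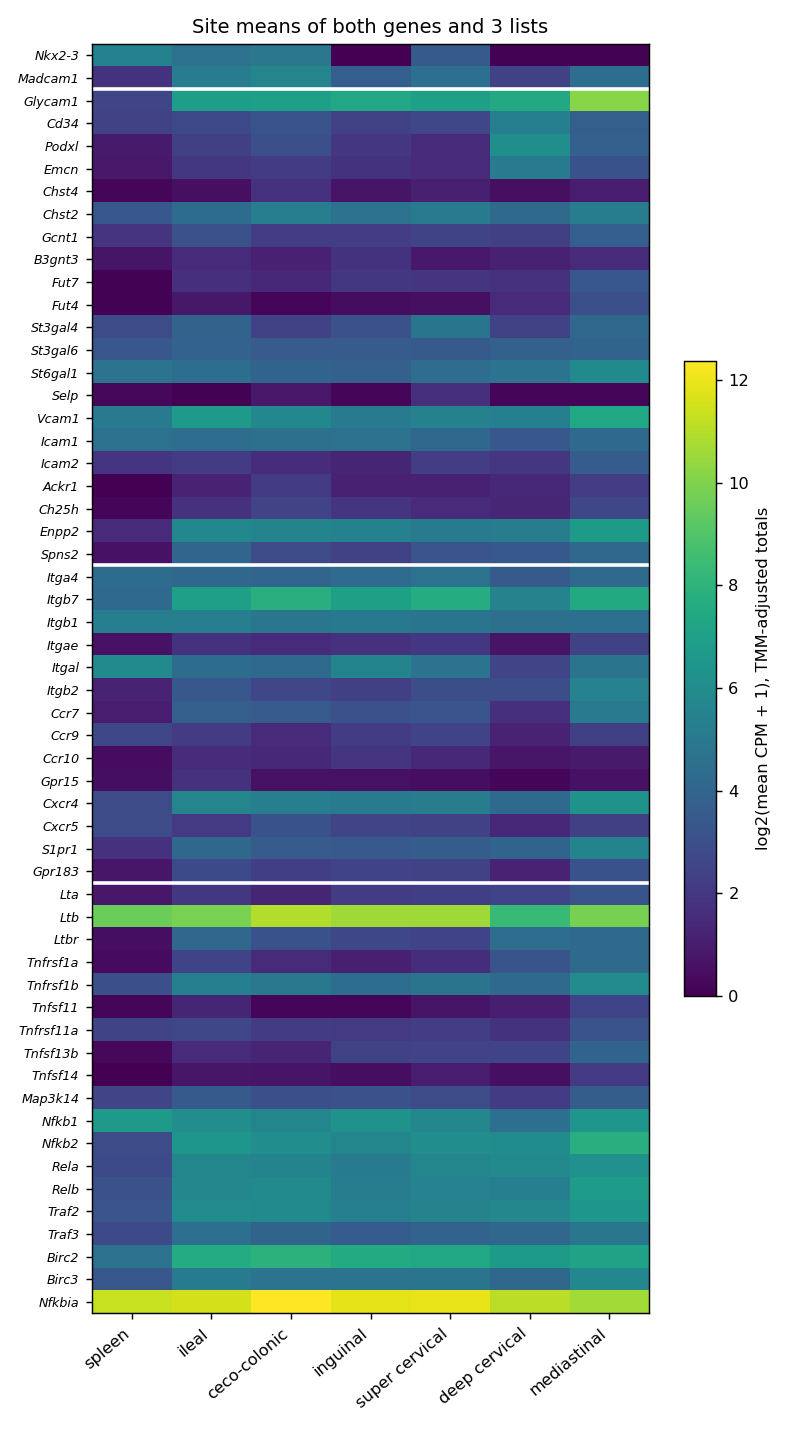
Mean level by site on the TMM scale, as log2(mean CPM + 1), of Nkx2-3 and Madcam1 at the top, then venule and addressin genes, homing receptors, and lymphotoxin, TNF and NF-kB genes, for the 7 sites with 3 deep libraries. The spleen column is dark for Madcam1, Enpp2, Spns2 and Ltbr and not for Nkx2-3, and Glycam1 is brightest in mediastinal node at 1159 CPM.

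Apart from Nkx2-1, relatives of Nkx2-3 in the NK2 and NK3 families were scarce. Of 8 relatives, 2 passed the filter on low counts, Nkx2-1 and Nkx2-2. Nkx2-1, a factor of thyroid and lung, exceeded 3 counts in 23 libraries, and it averaged 0.340 CPM in ileal node and 188 ± 63.5 CPM in deep cervical node. It averaged 1.24 ± 1.84 CPM in gut and 48.3 ± 88.8 CPM in non-digestive libraries (log2 -2.45 ± 0.50, adjusted p = 0.00516, edgeR), a call lost without super cervical replicate 3 (adjusted p = 0.0520). Nkx2-2 reached at most 119 counts, in deep cervical replicate 3. Nkx2-5, a heart and spleen factor, held 15.2 counts over all 37 libraries, and Nkx2-4, Nkx2-6 and Nkx3-2 exceeded 3 counts in none. Nkx2-9 held 24.5 counts in all.

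Among 12 tested transcription factors of gut and splenic mesenchyme, the tissue in which Nkx2-3 is at home, 1 was higher in gut nodes. Over all genes 1.45% passed as higher against the non-digestive nodes. Gata6 averaged 2.66 ± 1.12 CPM in gut and 0.755 ± 0.605 CPM in non-digestive libraries (2.13 ± 0.49, adjusted p = 0.0119), a call lost without ceco-colonic replicate 1 (adjusted p = 0.0950). In spleen against gut nodes 1 was higher and 4 were lower, beside 19.6% and 27.1% of all genes, so nothing is read from these shares. Hlx, a homeobox factor of gut mesenchyme, averaged 2.07 ± 0.898 CPM in spleen and 19.8 ± 5.24 CPM in gut nodes (-3.17 ± 0.48). Nr2f2, a nuclear receptor of veins and mesenchyme, averaged 40.7 ± 23.1 CPM in spleen and 121 ± 31.3 CPM in gut nodes (-1.52 ± 0.36). Meis2, a homeobox cofactor, was the higher one, with 25.0 ± 22.3 CPM in spleen and 10.6 ± 3.62 CPM in gut nodes (1.18 ± 0.47, adjusted p = 0.0415). No gene of the list passed as higher with limma voom, or without any 1 of ileal replicates 1 and 2, ceco-colonic replicates 1 and 3 and spleen replicate 3. When all 36 libraries were fitted, 1 of the 12 was lower.

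Stromal markers were partly higher in gut nodes. Of 22 tested reticular and follicular stroma genes, 3 were higher and 1 lower in gut against non-digestive nodes, beside 1.45% and 2.32% of all genes. Lepr, the leptin receptor, averaged 15.7 ± 4.61 CPM in gut and 3.97 ± 1.98 CPM in non-digestive libraries (1.93 ± 0.30, adjusted p = 0.000178). Dcn, the matrix proteoglycan decorin, averaged 265 ± 66.5 CPM in gut and 148 ± 91.3 CPM in the others (1.03 ± 0.22). Il33 was higher by 1.14 ± 0.29, a call lost in 3 of 18 fits that each left out a library (without ileal replicates 1 and 3 and ceco-colonic replicate 1). Cxcl13, the chemokine of B cell follicles, averaged 2.73 ± 1.81 CPM in gut and 21.6 ± 26.9 CPM in non-digestive libraries (-2.32 ± 0.48). The summed level of the list was 1719 to 2727 CPM in gut and 952 to 3339 CPM in non-digestive libraries. When all 36 libraries were fitted, 0 of these genes passed as higher.

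In spleen many of these stromal genes were lower. Against gut nodes 3 of the 22 passed as higher (6 with DESeq2 size factors) and 10 as lower, beside 19.6% and 27.1% of all genes. The list's summed level was 290 to 770 CPM in spleen and 1719 to 2727 CPM in gut libraries. Dcn averaged 4.11 ± 1.66 CPM in spleen and 265 ± 66.5 CPM in gut nodes (-5.87 ± 0.46, adjusted p = 7.31e-10). Ccl21a, a T zone chemokine, averaged 4.59 ± 1.66 CPM in spleen and 155 ± 42.0 CPM in gut nodes (-5.09 ± 0.68), and Des, which encodes desmin, averaged 3.71 ± 1.10 CPM in spleen and 33.9 ± 2.93 CPM in gut nodes (-3.08 ± 0.44). The part of these stromal levels in the Madcam1 difference was not tested.

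Endothelial and macrophage markers were read beside the pair because MAdCAM-1 is an endothelial protein and the pull-down is labelled as macrophage. The 16 blood endothelium genes summed to 319 to 464 CPM in spleen and 319 to 560 CPM in gut libraries, while the list's median log2 difference was -1.32 beside -0.15 over all genes. Pecam1, which made up most of the spleen sum, was higher in spleen (318 ± 49.2 against 150 ± 44.3 CPM in gut nodes), whereas Plvap was lower (2.18 ± 1.58 against 21.5 ± 14.4 CPM), and in all 2 were higher and 6 lower. Of 15 lymphatic sinus genes 6 were lower in spleen, and their sum was 45.1 to 161 CPM in spleen and 272 to 632 CPM in gut libraries. Of 14 macrophage genes 7 were lower, with sums of 219 to 3863 CPM in spleen and 1596 to 9194 CPM in gut libraries. Over all genes 19.6% passed as higher and 27.1% as lower in spleen against gut nodes. The part of these cell types in the Madcam1 difference was not tested.

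For gut against non-digestive nodes few members of the same lists were called, and over all genes 1.45% passed as higher and 2.32% as lower. Of blood endothelium genes, 1 of 16 was higher and 1 lower, and sums were 319 to 560 CPM in gut and 212 to 521 CPM in non-digestive libraries. Lymphatic sinus genes had 2 of 15 higher, Prox1 and Lyve1, and macrophage genes had 2 of 14 higher, Cd5l and Marco, and the calls of Lyve1 and Marco were each lost in 14 of 18 fits that left out a library. Without ceco-colonic replicate 1 the calls of Prox1, Cd5l and both blood endothelium genes (Cldn5 higher, Vwf lower) were lost as well, and those of Prox1 and Cldn5 also without ileal replicate 3. When all 36 libraries were fitted, no lymphatic sinus or blood endothelium gene passed as higher. Of intestinal epithelium genes 3 of 12 passed the filter and none was called, with sums of 35.9 to 78.4 CPM in gut and 17.4 to 68.6 CPM in the other libraries. Visceral smooth muscle genes summed to 62.9 to 90.7 CPM in gut and 52.7 to 453 CPM in the others, with 0 of 8 higher and 2 lower, Cnn1 and Actg2, whose calls were lost in 2 and 8 of 18 such fits. Exocrine pancreas genes, of which 2 of 10 passed the filter with none called (0 at an unadjusted p under 0.05), summed to 1.74 to 3.78 CPM in gut and 0 to 3.84 CPM in the others, and salivary gland genes had 0 of 11 higher and 4 lower.

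Between ileal and ceco-colonic node, where 0.213% of all genes passed as higher and 0.0508% as lower, none of the venule, homing receptor, NF-kB or reticular genes passed with edgeR or limma voom. An unadjusted p under 0.05 was found for 5 of 21, 2 of 15, 3 of 19 and 2 of 22 genes of these lists. Over all 19702 genes this held for 2700. With DESeq2 1 venule gene was lower and 1 reticular gene higher. Of macrophage genes 4 of 14 were higher in ileal node. Mrc1, the mannose receptor, averaged 52.2 ± 11.2 CPM in ileal and 4.88 ± 3.42 CPM in ceco-colonic node (3.35 ± 0.55, adjusted p = 0.00273), a call lost without ceco-colonic replicate 2 or 3. Leaving out 1 library brought the count of macrophage genes to 0 at the lowest, and DESeq2 called 9. Of blood endothelium genes 1 of 16 (Kdr) and of lymphatic sinus genes 1 of 15 (Lyve1) were higher in ileal node. Each of these 2 calls was lost in 5 of 6 fits that left out a library. Blood endothelium genes summed to 454 to 560 CPM in ileal and 319 to 375 CPM in ceco-colonic libraries. Lymphatic sinus genes summed to 569 to 632 CPM in ileal and 272 to 410 CPM in ceco-colonic libraries.

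**Figure D5:**
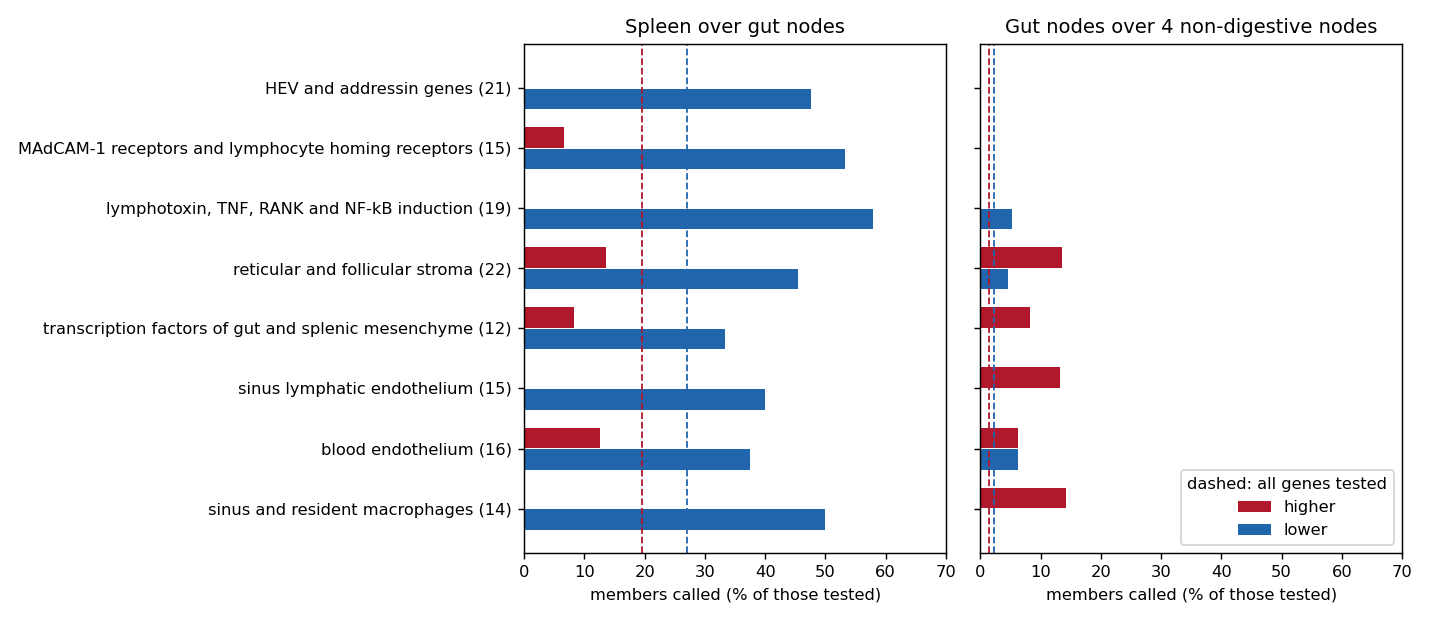
Percent of tested members of 8 gene lists, their number in parentheses, that passed as higher or lower with edgeR, for spleen over gut nodes on the left and gut nodes over the 4 non-digestive nodes on the right; dashed lines give the percent of all 19702 genes. For spleen over gut nodes the lines stand at 19.6% higher and 27.1% lower, and for gut over non-digestive nodes at 1.45% and 2.32%.

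Genes whose level followed either gene most closely were ranked over the 22 deeper libraries among 9014 genes of at least 5 CPM, by Pearson's r of log2 CPM. For Madcam1 they were Serpina10 (r = 0.934, Spearman's rho 0.846), Apol7c (0.928), Pstpip1 (0.923), C4b (0.922), Ap1g2 (0.910), Lfng (0.910), Cabp4 (0.905) and Sh3bp1 (0.904). Serpina10, an inhibitor of clotting proteases, averaged 0.266 CPM in spleen, 24.6 in ceco-colonic, 18.4 in mediastinal and 2.76 in deep cervical node. All 8 had their lowest mean in spleen and the next lowest in deep cervical node, as Madcam1 did. For Nkx2-3 the nearest were weaker: Clspn (r = 0.693, rho 0.672), Polr1a (0.685), Helq (0.651), Cenpe (0.649), Lig1 (0.645), Mcm10 (0.644), Ffar2 (0.643) and Rad51ap1 (0.642). Clspn averaged 85.9 CPM in spleen, 13.8 in ileal, 21.0 in ceco-colonic and 12.5 in super cervical node, and it was present at 9.22 CPM in inguinal node, where Nkx2-3 was at 0.0170. The libraries share site, depth and pull-down quality, so these values describe likeness over libraries only.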

How the data were processed

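RNA on tagged ribosomes was measured in 36 pull-downs from 12 sites and 1 isotype control. The deposited table holds estimated counts of 56351 genes with no visible scaling to a common total. Per the submitters' processing notes the authors used kallisto, limma and edgeR, with no version or role given, and the notes name GRCm39 and mm10 together, so coordinates here come from the reference annotation alone. Use of strand is not given in the sources used here. Of all values, zeros included, 32.8% were not whole numbers; among the values above 0 this held for 99.3% at a tolerance of 0.001. All were rounded before testing. The 211 genes with no symbol stayed in the table and in the fit.

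The 22 pull-downs with at least 1000000 counts entered 1 model in edgeR 4.0.16 (R 4.3.3): filterByExpr (minimum count 10, minimum total 15; 19702 genes kept), TMM totals, quasi-likelihood fit with robust settings and 1 mean per site. Contrasts were 4, with Benjamini-Hochberg adjustment over all genes and a threshold of 0.05. The other 14 pull-downs are given as counts, and the isotype library entered no fit. Errors are SD for CPM and SE for log2 differences. Only the comparison of gut against non-digestive nodes was checked on simulated data, with the same spread for every gene. There 71.4% of 91 simulated log2 changes of size 2 were recovered, and 100% of 109 of size 4. The test between ileal and ceco-colonic node was not simulated. Alternatives were DESeq2 1.42.0, its size factors, limma 3.58.1 with voom, no filter, all 36 libraries, a replicate term and leaving out each library.

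The members, the 13 gene lists and the tests were chosen with earlier results of these data known. Of each list up to 4 genes per comparison are named, smallest p first, together with the NK2 and NK3 relatives and, for likeness, the 8 genes with the highest r (predicted genes, pseudogenes and immunoglobulin segments left out); Glycam1, Vcam1, Itga4, Itgal, Ltbr, Ltb, Meis2 and Pecam1 were named after their values were seen. Replicates were different libraries, as chi-square over degrees of freedom was 10.8 to 198 in all 36 pairs. A few listed genes are not reported here.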

Additional observations from a re-analysis of the deposited data

Results flagged for a closer look

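In data outside the comparisons, 3 values of the jejunal node stood above the isotype library of the same node. Nkx2-3 was at 15.4 CPM (7.63 counts) in jejunal replicate 1 and 14.2 CPM (27.7 counts) in jejunal replicate 2, against 0 in the isotype library, where 3 counts correspond to 0.6 CPM. Madcam1 was at 7.73 CPM (15.1 counts) in jejunal replicate 2, against 0.171 CPM in the isotype library. Jejunal replicate 3 held 0 counts of both, and with 1 isotype library there is no replicate check.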

How the results depend on the processing

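In the alternative fits, both genes kept the direction of their log2 difference in all 4 comparisons wherever a value was kept. Neither gene crossed the threshold between ileal and ceco-colonic node. DESeq2 gave no adjusted p for Nkx2-3, and its difference there was kept only for gut against non-digestive nodes. Counts of genes called moved by more than 1.5 times in both comparisons between nodes, and the cause was not tested. For gut against non-digestive nodes 742 genes were called, against 1270 with no filter, 1636 with DESeq2 and 339 with all 36 libraries, and 303 (without ceco-colonic replicate 1) to 1827 (without deep cervical replicate 1) when 1 library was left out. Size factors of DESeq2 changed the split from 285 higher and 457 lower to 249 and 653. For ileal against ceco-colonic node 52 were called, against 101 with those size factors, 508 with no filter, 604 with DESeq2, 96 with voom, 33 with all libraries and 88 with a replicate block, and 3 (without ceco-colonic replicate 3) to 66 (without ceco-colonic replicate 1) when 1 library was left out. The Nkx2-3 difference of gut over non-digestive nodes ran from 6.59 to 9.45 over these omissions.

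Plain totals gave Nkx2-3 a mean of 29.1 CPM in ileal node and of 25.6 in the ceco-colonic one. They put Madcam1 at 44.7 in ileal, 41.6 in ceco-colonic and 29.9 in mediastinal node. For both genes this reversed the order of ileal and ceco-colonic node found with TMM. Totals without ribosomal features put Nkx2-3 at 30.8 in ileal and 29.5 in ceco-colonic node, also in reverse order. They put Madcam1 at 47.1 in ileal, 48.6 in ceco-colonic, 25.4 in super cervical, 5.68 in deep cervical and 30.8 in mediastinal node. For spleen against gut nodes the median over all genes was -0.15 with TMM and 0.08 with DESeq2 size factors, under which the Madcam1 difference was -3.50.

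Replicate numbers were not taken as pairs, because the labels do not say what the numbers mark. Deviations of same-numbered libraries correlated with a median of 0.0214 (16 of 63 pairs over 0.1) and of other numbers with -0.0208 (19 of 126). Of 21 libraries, 11 correlated best with their own number. This is a hint of pairing from the data and not from the design, and these values do not settle it. With the replicate block the Madcam1 difference of spleen over gut nodes was -3.70, and counts of calls were 847, 11279 and 9199 for gut over non-digestive nodes, spleen over those nodes and spleen over gut nodes. Depth limits the 14 shallow libraries and the 2 spleen libraries with under 3 counts of Madcam1.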
